A study of Mus musculus with 9 samples.

Results

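NF-κB is a family of transcription factors whose subunits pair with each other, and the pairs are held in the cytoplasm by IκB proteins until a receptor signal has the IκB degraded. IL-33, an epithelial alarmin, signals through its receptor ST2 and the adaptor MyD88 to this pathway. NF-κB also switches on its own restraints, among them the IκB protein IκBα, the ubiquitin-editing enzyme A20 and the RNase Regnase-1, so that their transcripts serve as feedback targets. The genes described here are 10 such subunit and feedback genes, taken by name from the 34638 genes of the deposited table: *Nfkb1*, *Nfkb2*, *Relb*, *Nfkbia*, *Nfkbiz*, *Bcl3*, *Tnfaip3*, *Tnip1*, *Zc3h12a* and *Tnf*. Each of the 10 names was found once.

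Lung RNA of 9 wild-type C57BL/6 mice was sequenced, 3 in each of 3 groups. The PBS group received phosphate buffered saline. The IL-33 group received 0.5 µg of recombinant mouse IL-33 into the trachea on days 0, 1, 2 and 3. The IL-33+LM8 group received the same challenge and, before it, intraperitoneal LM8, a MyD88 inhibitor, at 10 mg/kg. The methods describe PBS and IL-33 mice as females aged 6 to 8 weeks whose lungs were taken 24 h after the last challenge; sex, age and sampling time of the IL-33+LM8 mice, and whether the other groups received the vehicle of LM8, are not given in the sources used here. Reads counted on genes totalled 62238131, 61767006 and 73869252 in PBS replicates 1, 2 and 3, 66029783, 59830237 and 53877663 in IL-33 replicates, and 59753648, 62104126 and 90607218 in IL-33+LM8 replicates. Levels are given in FPKM, computed by the authors' sequencing company with gene length and sequencing depth scaled out, so that levels of different genes can be compared. A gene was called when its edgeR p, adjusted over all genes tested, was under 0.05. All 10 genes had a mean of at least 0.5 FPKM over the 9 mice and were tested. *Tnf* averaged 0.286 FPKM in PBS mice and passed only through the groups in which it was higher.

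In PBS lungs the levels spanned from *Nfkbia* at 83.6 ± 8.41 FPKM (SD, n = 3) to *Tnf* at 0.286 ± 0.189 FPKM (SD, n = 3). *Nfkb1*, *Tnip1* and *Nfkb2* followed *Nfkbia* in that order, each clear of its neighbour. Next came *Nfkbiz*, *Bcl3*, *Relb*, *Zc3h12a* and *Tnfaip3*, where the range of each overlapped that of the next. The coefficient of variation between mice of a group had a median over the 10 genes of 9.02% in PBS, 5.18% in IL-33 and 6.73% in IL-33+LM8 mice, and was highest for *Tnf* in PBS mice, at 65.9%. *Nfkbia* remained the most abundant and *Tnf* the least abundant in every group, while *Nfkb2* moved from rank 4 in PBS to rank 2 in both other groups, where its range overlapped that of *Nfkb1*.

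**Figure D1:**
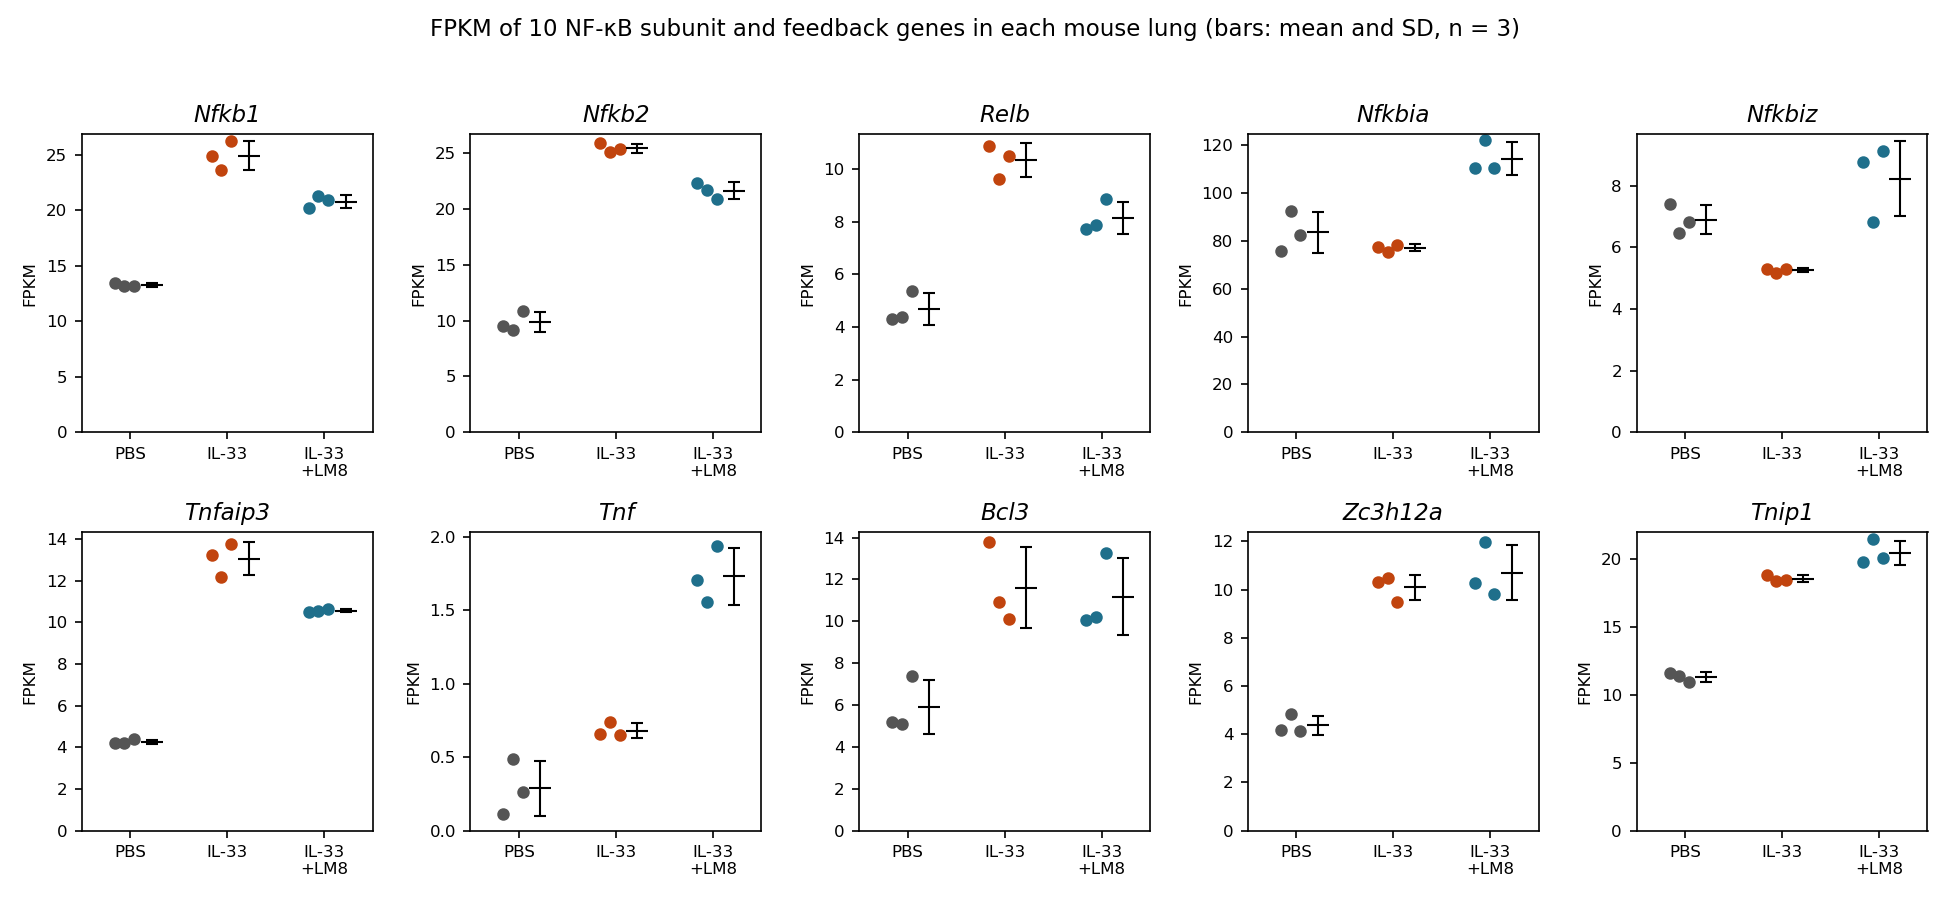
FPKM of each of the 10 genes (vertical axes, each from 0) in the lungs of 9 mice, by group. Points are mice, and bars give the mean and SD of 3 mice. *Nfkbia* lay between 110 and 122 FPKM in IL-33+LM8 mice and at or below 92.5 FPKM in all other mice.

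IL-33 against PBS asks which of these genes the alarmin moves in the lung. Of the 10 genes, 7 rose, *Nfkbiz* fell, and *Nfkbia* and *Tnf* did not pass the test. Among the 16831 genes tested, 27.4% were called higher and 27.2% lower in this comparison. The median log2 fold change was 1.05 over the 10 genes and -0.0053 over all genes tested. FPKM did not overlap between the groups for 9 of the 10 genes, *Nfkbia* being the exception, against 63.4% of all genes tested. An exact permutation test of 3 mice against 3 cannot give a two-sided p under 0.1. Groups that do not overlap always reach that value, as these 9 genes did on log2(FPKM + 1), so the test adds nothing to this count.

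IL-33+LM8 against IL-33 compares challenged lungs with and without the inhibitor. No group received LM8 without IL-33. An effect on the IL-33 response thus cannot be told apart from an effect of LM8 itself. Of the 10 genes, 3 rose (*Nfkbia*, *Nfkbiz* and *Tnf*), 4 fell (*Nfkb1*, *Nfkb2*, *Relb* and *Tnfaip3*), and *Bcl3*, *Zc3h12a* and *Tnip1* did not pass the test. Across all genes tested, 12.6% were called higher and 13.9% lower, and FPKM did not overlap between groups for 43.2%, against 8 of the 10 genes. The median log2 fold change was 0.016 over the 10 genes and -0.0062 over all genes. Falls were small: the 4 log2 fold changes lay between -0.34 for *Relb* and -0.23 for *Nfkb2*. Without IL-33 replicate 1, 4 of the 10 genes were called, and *Nfkb1*, *Nfkb2* and *Relb* had edgeR adjusted p of 0.0511, 0.0556 and 0.0719. The share of all genes called in that fit, which holds fewer mice, is not given. The count is therefore not set against it. With each mouse left out in turn, log2 fold changes of these 3 genes lay between -0.295 and -0.209, -0.251 and -0.196, and -0.395 and -0.302. Over all alternatives tried, edgeR, DESeq2 or limma adjusted p of these 3 falls ranged from 0.000854 to 0.0706, from 0.00158 to 0.0620 and from 0.00210 to 0.0727.

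IL-33+LM8 against PBS shows how far the genes stood from unchallenged lungs. In this comparison 9 of the 10 genes were called higher and 0 lower, and *Nfkbiz* did not pass the test. Of the 16829 genes tested, 16.3% were called higher and 13.4% lower, and 47.3% had groups that did not overlap, against 9 of the 10 genes. Against PBS, the log2 fold changes were 1.15 for *Nfkb2*, 0.81 for *Relb*, 0.93 for *Bcl3*, 1.32 for *Tnfaip3*, 0.87 for *Tnip1* and 1.31 for *Zc3h12a*, with edgeR adjusted p of 9.61e-05, 0.00200, 0.00794, 2.40e-05, 0.000187 and 0.000326. The median log2 fold change was 0.90 over the 10 genes and 0.0035 over all genes. Each of the 3 comparisons shares a group of mice with both others, so their values are set side by side and no relation between them was tested.

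**Figure D2:**
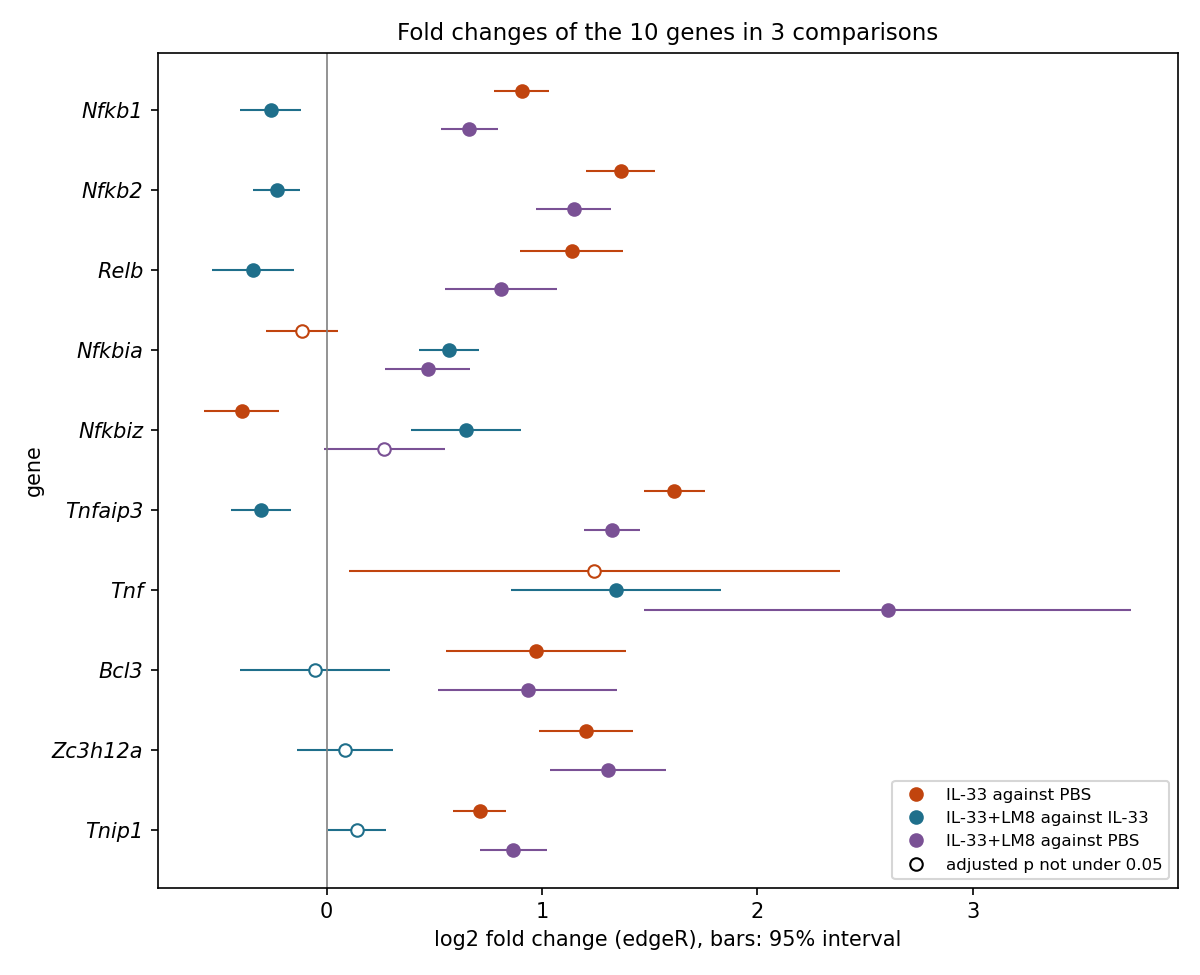
Log2 fold changes of the 10 genes from edgeR (horizontal axis) in the 3 comparisons, with 95% intervals as bars and open points where the adjusted p was not under 0.05. *Nfkb1*, *Nfkb2*, *Relb* and *Tnfaip3* lie right of 0 in IL-33 against PBS and left of 0 in IL-33+LM8 against IL-33, while *Nfkbia* and *Nfkbiz* lie left and then right of 0.

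*Nfkb1*, *Nfkb2* and *Relb* encode NF-κB subunits: p105, the precursor of p50; p100, the precursor of p52; and RelB, the partner of p52 in the non-canonical pathway. Genomic positions are given as in the deposited table, which names no build; the processing notes name mm10, but none of the 10 genes lies where GENCODE M21 places it on GRCm38. *Nfkb1* (ENSMUSG00000028163, chromosome 3, 135290416 to 135397308, minus strand) measured 13.4, 13.1 and 13.2 FPKM in PBS, 24.8, 23.6 and 26.2 FPKM in IL-33, and 20.2, 21.3 and 20.9 FPKM in IL-33+LM8 mice. The 3 groups did not overlap, with IL-33+LM8 between the other groups. Its log2 fold change was 0.91 (SE 0.05, edgeR adjusted p = 1.26e-05) in IL-33 against PBS, -0.26 (SE 0.06, edgeR adjusted p = 0.0175) in IL-33+LM8 against IL-33 and 0.66 (SE 0.06, edgeR adjusted p = 0.000269) in IL-33+LM8 against PBS.

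*Nfkb2* (ENSMUSG00000025225, chromosome 19, 46292759 to 46300824, plus strand) measured 9.52, 9.18 and 10.9 FPKM in PBS, 25.9, 25.1 and 25.4 FPKM in IL-33, and 22.3, 21.7 and 20.9 FPKM in IL-33+LM8 mice. Again the groups were apart, and the rise over PBS was the larger step, with log2 fold changes of 1.36 (SE 0.07, edgeR adjusted p = 5.62e-06) for IL-33 against PBS and -0.23 (SE 0.05, edgeR adjusted p = 0.00953) for IL-33+LM8 against IL-33. *Nfkb2* overlaps *Psd* and *4833438C02Rik* on the other strand. Whether counting used strand is not given in the sources used here, so reads of the shared stretch cannot be told apart. *Psd* had at most 1441 counts in a mouse, against at least 2719 for *Nfkb2*.

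*Relb* (ENSMUSG00000002983, chromosome 7, 19340142 to 19363363, minus strand) measured 4.31, 4.38 and 5.39 FPKM in PBS, 10.9, 9.64 and 10.5 FPKM in IL-33, and 7.73, 7.88 and 8.85 FPKM in IL-33+LM8 mice. No mouse of a group reached the range of another group. The log2 fold change was 1.14 (SE 0.10, edgeR adjusted p = 8.50e-05) for IL-33 against PBS and -0.34 (SE 0.08, edgeR adjusted p = 0.0191) for IL-33+LM8 against IL-33. That fall lost its call without IL-33 replicate 3 or IL-33+LM8 replicate 1, at edgeR adjusted p of 0.0727 and 0.0515. The fall of *Nfkb1* lost its call without IL-33 replicate 3 or IL-33+LM8 replicate 3, at 0.0706 and 0.0586, and that of *Nfkb2* without IL-33+LM8 replicate 3, at 0.0620, all edgeR adjusted p.

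The remaining subunit genes split. *Rela*, which encodes p65, the main activating subunit, was at 31.7 ± 1.81 FPKM in PBS, 29.9 ± 2.84 FPKM in IL-33 and 32.2 ± 0.957 FPKM in IL-33+LM8 mice (SD, n = 3 each), and was called in none of the 3 comparisons, whose log2 fold changes were -0.089, 0.11 and 0.034 with 95% intervals from -0.27 to 0.093, from -0.061 to 0.27 and from -0.11 to 0.18. *Rel*, which encodes c-Rel, a subunit prominent in lymphocytes, rose from 3.36 ± 0.248 to 7.61 ± 0.0802 FPKM with IL-33 and fell to 4.35 ± 0.159 FPKM with LM8 (SD, n = 3 each). Its fall, a log2 fold change of -0.81 (SE 0.06, edgeR adjusted p = 0.000188), was larger than those of the other subunit genes. Of the FPKM summed over the 5 subunit genes, *Rela* took 50.4% in PBS, 30.4% in IL-33 and 36.9% in IL-33+LM8 mice, and *Nfkb2* took 15.7%, 25.9% and 24.8% (means of 3 mice). In FPKM, the ratio of *Relb* to *Rela* was 0.148 ± 0.0166 in PBS, 0.347 ± 0.0131 in IL-33 and 0.254 ± 0.0267 in IL-33+LM8 mice (SD, n = 3 each), with no overlap of groups.

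*Nfkbia* (ENSMUSG00000021025, chromosome 12, 55536195 to 55539432, minus strand) encodes IκBα, the inhibitor whose loss frees the canonical p65 and p50 pair. It measured 75.9, 92.5 and 82.4 FPKM in PBS, 77.6, 75.5 and 78.5 FPKM in IL-33, and 111, 122 and 110 FPKM in IL-33+LM8 mice. PBS and IL-33 mice overlapped, and every IL-33+LM8 mouse lay above them. The log2 fold change was 0.57 (SE 0.06, edgeR adjusted p = 0.000597) for IL-33+LM8 against IL-33 and 0.47 (SE 0.08, edgeR adjusted p = 0.00638) against PBS, and the 95% interval of IL-33 against PBS ran from -0.28 to 0.05. In FPKM, the ratio of *Nfkbia* to *Nfkb1* in the same mouse, chosen after the values were seen, was 5.65, 7.05 and 6.24 in PBS, 3.13, 3.20 and 2.99 in IL-33, and 5.49, 5.76 and 5.28 in IL-33+LM8 mice. This ratio was lower in IL-33 mice than in all other mice, and PBS and IL-33+LM8 mice overlapped; it restates the values of both genes and carries no test.

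*Nfkbiz* and *Bcl3* encode the nuclear IκB proteins IκBζ and Bcl-3, which act on chromatin-bound NF-κB. *Nfkbiz* (ENSMUSG00000035356, chromosome 16, 55631738 to 55659262, minus strand) measured 7.41, 6.48 and 6.83 FPKM in PBS, 5.30, 5.18 and 5.30 FPKM in IL-33, and 8.76, 6.83 and 9.12 FPKM in IL-33+LM8 mice. IL-33 mice lay below all others, and IL-33+LM8 replicate 2 lay within the PBS range. The log2 fold change was -0.39 (SE 0.07, edgeR adjusted p = 0.00326) for IL-33 against PBS, 0.65 (SE 0.11, edgeR adjusted p = 0.00445) for IL-33+LM8 against IL-33 and 0.27 (SE 0.12, edgeR adjusted p = 0.135) for IL-33+LM8 against PBS. With same-numbered mice taken as pairs, in a fit with the replicate block, the last value was 0.26 (edgeR adjusted p = 0.0494) and was called, and without IL-33+LM8 replicate 2 it was 0.39 (edgeR adjusted p = 0.0273). Over all alternatives of that value the adjusted p ranged from 0.0273 to 0.342.

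*Bcl3* (ENSMUSG00000053175, chromosome 7, 19542387 to 19556695, minus strand) measured 5.21, 5.09 and 7.40 FPKM in PBS, 13.8, 10.9 and 10.1 FPKM in IL-33, and 10.0, 10.2 and 13.3 FPKM in IL-33+LM8 mice. Both challenged groups lay above PBS and overlapped each other. The log2 fold change was 0.97 (SE 0.18, edgeR adjusted p = 0.00283) for IL-33 against PBS and -0.052 (95% interval -0.40 to 0.30) for IL-33+LM8 against IL-33. On the same chromosome as *Relb*, it overlaps the genes *Gm16175* and *Gm16174* on the other strand, which had at most 50 counts in a mouse.

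*Tnfaip3* encodes A20, which removes and edits ubiquitin chains upstream of the IκB kinase, and *Tnip1* encodes ABIN-1, an A20 partner that binds such chains. *Tnfaip3* (ENSMUSG00000019850, chromosome 10, 18876658 to 18891158, minus strand) measured 4.22, 4.18 and 4.38 FPKM in PBS, 13.2, 12.2 and 13.8 FPKM in IL-33, and 10.5, 10.5 and 10.6 FPKM in IL-33+LM8 mice. The groups were apart, and IL-33+LM8 mice varied by only 0.573% of their mean. Its log2 fold change of 1.61 (SE 0.06, edgeR adjusted p = 2.05e-06) was the largest of the 10 genes in IL-33 against PBS, and IL-33+LM8 against IL-33 gave -0.31 (SE 0.06, edgeR adjusted p = 0.00807). *Tnip1* (ENSMUSG00000020400, chromosome 11, 54801611 to 54853742, minus strand) measured 11.6, 11.4 and 10.9 FPKM in PBS, 18.8, 18.4 and 18.4 FPKM in IL-33, and 19.8, 21.5 and 20.1 FPKM in IL-33+LM8 mice. All IL-33+LM8 mice lay above all IL-33 mice, yet the log2 fold change of 0.14 (95% interval 0.0055 to 0.27, edgeR adjusted p = 0.118) did not pass the test.

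*Zc3h12a* (ENSMUSG00000042677, chromosome 4, 125012216 to 125021633, minus strand) encodes Regnase-1, an RNase that degrades inflammatory mRNAs. It measured 4.16, 4.82 and 4.12 FPKM in PBS, 10.3, 10.5 and 9.50 FPKM in IL-33, and 10.3, 12.0 and 9.81 FPKM in IL-33+LM8 mice. Challenged mice of both groups lay above PBS mice and overlapped each other, with log2 fold changes of 1.20 (SE 0.09, edgeR adjusted p = 4.21e-05) for IL-33 against PBS and 0.085 (95% interval -0.14 to 0.31) for IL-33+LM8 against IL-33.

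*Tnf* (ENSMUSG00000024401, chromosome 17, 35418357 to 35420983, minus strand) encodes tumour necrosis factor, a cytokine that is both a product and an activator of the pathway. It was counted 12, 52 and 33 times in PBS, 74, 76 and 60 times in IL-33, and 175, 165 and 300 times in IL-33+LM8 mice. These counts correspond to 0.112, 0.487 and 0.261 FPKM, 0.657, 0.738 and 0.648 FPKM, and 1.71, 1.55 and 1.94 FPKM. Groups did not overlap on the FPKM scale, although PBS replicate 2 lay well above PBS replicate 1. The log2 fold change was 1.24 (SE 0.48, edgeR adjusted p = 0.0640) for IL-33 against PBS, 1.34 (SE 0.21, edgeR adjusted p = 0.00317) for IL-33+LM8 against IL-33 and 2.61 (SE 0.48, edgeR adjusted p = 0.00718) for IL-33+LM8 against PBS. Without PBS replicate 2 the last value was 3.22 (edgeR adjusted p = 0.00541), and leaving out other mice singly gave 2.23 or more; its adjusted p ranged from 3.22e-07 to 0.0244 over the alternatives tried. The first of these was called without PBS replicate 2, at 1.85 (edgeR adjusted p = 0.0130), in a fit of all 9 mice and with limma on log2(FPKM + 1), and the adjusted p of that value ranged from 0.0130 to 0.146 over the alternatives tried.

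Markers of several cell types differed between the groups too, and bulk RNA cannot tell more cells of a type from more RNA per cell. The FPKM summed over 7 neutrophil markers was 30.5 ± 3.65 in PBS, 200 ± 11.4 in IL-33 and 926 ± 81.2 in IL-33+LM8 mice (SD, n = 3 each). All 7 were called higher in each comparison. Of all genes tested, 27.4% were called higher in IL-33 against PBS, 12.6% in IL-33+LM8 against IL-33 and 16.3% in IL-33+LM8 against PBS. *Ly6g*, at 0.0766 FPKM in PBS, passed the filter only through groups in which it was higher. Here and below, the gene that leads a list is its most abundant over all 9 mice; for neutrophils it was *S100a9*, at 15.0, 47.9 and 509 FPKM on average, while in IL-33 mice *Retnlg* was higher, at 106 FPKM. The sum over 7 monocyte and interstitial macrophage markers, led by *C1qb*, was 95.5 ± 6.07, 510 ± 15.8 and 238 ± 6.09 FPKM in the same order (SD, n = 3 each), and that over 6 B cell markers, led by *Cd79b*, was 40.2 ± 5.41, 145 ± 19.3 and 87.5 ± 7.75 FPKM (SD, n = 3 each). Those over 6 dendritic cell markers, led by *Ccr7*, were 34.0, 74.7 and 47.6 FPKM, and those over 6 T cell markers, led by *Cd2*, were 16.6, 26.9 and 20.9 FPKM. The sums of these 4 lists were highest in IL-33 mice. The 6 eosinophil markers, led by *Prg2*, summed to 4.11, 43.1 and 8.79 FPKM, of which *Siglecf* made up 3.40 FPKM in PBS mice, and *Epx*, the eosinophil peroxidase, had 0 counts in all PBS mice. Lung epithelium markers, led by *Scgb1a1*, summed to 33502, 14367 and 27128 FPKM, and those of endothelium, led by *Cldn5*, to 674, 451 and 656 FPKM. Fibroblast markers, led by *Col1a1*, summed to 179, 303 and 153 FPKM, and alveolar macrophage markers, led by *Car4*, to 111, 114 and 109 FPKM. Of the alveolar macrophage sums, *Car4* made up 80.9, 54.5 and 67.6 FPKM, and *Mrc1* 8.44, 38.5 and 21.2 FPKM. These moved in opposite directions, so the near-equal sums do not show that the markers or the cells held steady. *Car4* stood in the same order over the groups as the endothelium sum. Which cells gave its RNA cannot be told from bulk RNA.

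Among all genes tested, 27.4% were called higher and 27.2% lower with IL-33, and 12.6% higher and 13.9% lower with LM8, so some of the marker counts that follow are near these shares. With IL-33, 6 of 7 monocyte and macrophage markers were called higher and 1 lower, as were 4 and 2 of 6 dendritic cell markers, 6 and 0 of 6 B cell markers and 4 and 0 of 6 T cell markers. With LM8, 1 of the 7 monocyte and macrophage markers was called higher and 5 lower, as were 1 and 3 of the dendritic cell, 0 and 6 of the B cell and 0 and 2 of the T cell markers. Of 5 eosinophil markers tested, all but *Epx*, 5 were higher with IL-33 and 5 lower with LM8; *Prg2*, *Ear6*, *Ccr3* and *Il5ra*, at 0.176, 0.0781, 0.0505 and 0.405 FPKM in PBS, passed the filter only through groups in which they were higher. Of 6 epithelial markers, 1 was higher and 3 lower with IL-33, and 3 were higher and 0 lower with LM8. Of 6 endothelial markers, 0 were higher and 4 lower with IL-33, and 6 were higher with LM8. Of 6 fibroblast markers, 2 were higher and 4 lower with IL-33 although their sum was higher, and 1 was higher and 2 lower with LM8 (median log2 fold changes -0.63 and -0.19). Of 6 alveolar macrophage markers, 3 were higher and 3 lower in both comparisons. The part of these cell types in the results for the 10 genes was not tested.

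A wider list of 67 other genes of the pathway was compared in the same fits, and 66 passed the filter on low values, all but *Zc3h12b*. Of these, 34 rose and 10 fell in IL-33 against PBS, 13 rose and 20 fell in IL-33+LM8 against IL-33, and 32 rose and 4 fell in IL-33+LM8 against PBS. Of all genes tested, 27.4%, 12.6% and 16.3% were called higher and 27.2%, 13.9% and 13.4% lower in these comparisons. The median log2 fold changes were 0.38, -0.010 and 0.36 over the list and -0.0053, -0.0062 and 0.0035 over all genes. *Tnfsf11*, *Il6*, *Tnip3*, *Cxcl2*, *Lta*, *Ccl2*, *Ccl20* and *Cd40lg* averaged 0.0903, 0.139, 0.202, 0.326, 0.332, 0.359, 0.406 and 0.475 FPKM in PBS mice, so like *Tnf* they passed the filter only through groups in which they were higher. The other cytoplasmic and nuclear IκB genes, *Nfkbib*, *Nfkbie* and *Nfkbid*, all rose with IL-33, as *Bcl3* did and *Nfkbia* and *Nfkbiz* did not. *Nfkbie*, encoding IκBε, rose from 3.29 ± 0.139 to 10.6 ± 0.567 FPKM and stood at 7.73 ± 0.822 FPKM with LM8 (SD, n = 3 each), with a log2 fold change of -0.46 (SE 0.10, edgeR adjusted p = 0.0117). *Nfkbid* fell with LM8 as well, with a log2 fold change of -0.47 (SE 0.14, edgeR adjusted p = 0.0447), and *Nfkbib*, at -0.051 (95% interval -0.22 to 0.11), was not called.

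Beside the counts of each list here stand the shares of all genes tested: 27.4% higher and 27.2% lower with IL-33, and 12.6% higher and 13.9% lower with LM8. A list of 8 genes held those of the IκB kinase complex, the kinases above it, and *Tab1*, *Tab2* and *Tab3*, which encode kinase-binding adaptors. Of these 8, *Map3k14*, which encodes the kinase NIK of the non-canonical pathway, rose and *Map3k7* fell with IL-33, and *Map3k14* fell with LM8. The other 6 were called in neither comparison, and the list medians were -0.013 and -0.010. Of 7 TRAF and cIAP genes, 4 rose with IL-33 and 2 fell with LM8 (medians 0.42 and -0.047). A list of 12 genes held TNF family receptors and ligands and also *Adam17*, which encodes neither. Of these 12, 10 rose with IL-33 (median 1.09), led by *Tnfsf11*, the ligand RANKL, and *Ltb*, encoding lymphotoxin β. Their log2 fold changes were 4.35 (SE 0.34) and 2.38 (SE 0.17). *Adam17* is counted among the 10 rises, at 0.43. With LM8, 7 of the 12 fell, *Adam17* among them at -0.35, and 1 rose (median -0.44). The largest falls were those of *Lta* at -1.30 (SE 0.32), *Tnfrsf13c*, the BAFF receptor, at -1.25 (SE 0.23) and *Ltb* at -1.23 (SE 0.12). IL-33 mice had 99 to 103 counts of *Lta* each, and mice also given LM8 had 30 to 60, whereas *Tnf* rose. Among 11 ubiquitin regulators, 5 rose and *Otud7b* fell with IL-33 (median 0.099), and 2 rose and 4 fell with LM8 (median -0.034). *Tnip3*, encoding the A20 partner ABIN-3, changed most, by 3.69 (SE 0.21) with IL-33 and -1.50 (SE 0.13) with LM8 on the log2 scale.

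Of 17 target genes, 8 rose and 5 fell with IL-33, and 9 rose and 2 fell with LM8 added, with medians of 0.33 and 0.58, where 27.4% and 27.2% of all genes tested were called higher and lower with IL-33 and 12.6% and 13.9% with LM8. Of 6 genes tested in a list of mRNA decay, 2 rose and 3 fell with IL-33, and 1 rose and 1 fell with LM8 (medians -0.16 and -0.011). This list includes *Malt1*, which encodes a protease and not a decay factor. *Malt1* is counted among the rises with IL-33, at 1.79, and is the only fall with LM8, at -0.87. Among the target genes, *Il6* and *Ccl2* rose most with IL-33, by log2 fold changes of 4.15 (SE 0.26) and 3.87 (SE 0.35). *Il6* then fell with LM8, by -1.22 (SE 0.24). *Cxcl2*, a neutrophil chemokine, and *Il1b*, encoding IL-1β, rose further with LM8, by 1.75 (SE 0.22) and 1.14 (SE 0.09). *Ier3*, *Irf1* and *Ptgs2* rose with LM8 by 0.82, 0.65 and 0.60 on the log2 scale. Over the whole wider list, the largest falls with IL-33 were those of *Zfp36*, encoding the mRNA-decay factor tristetraprolin, at -0.81 (SE 0.12), *Bcl2l1* at -0.74 (SE 0.04) and *Gadd45b* at -0.66 (SE 0.08). *Otud7b* at -0.56 (SE 0.07) and *Ptgs2* at -0.48 (SE 0.12) followed. Against PBS, IL-33+LM8 mice were highest above it for *Ccl2*, *Tnfsf11*, *Cxcl2*, *Il1b* and *Il6*, at log2 fold changes of 4.38, 3.56, 3.32, 2.97 and 2.95. Only *Zfp36*, *Otud7b*, *Rc3h1* and *Rc3h2* were called lower there, at -0.33, -0.28, -0.25 and -0.23.

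**Figure D3:**
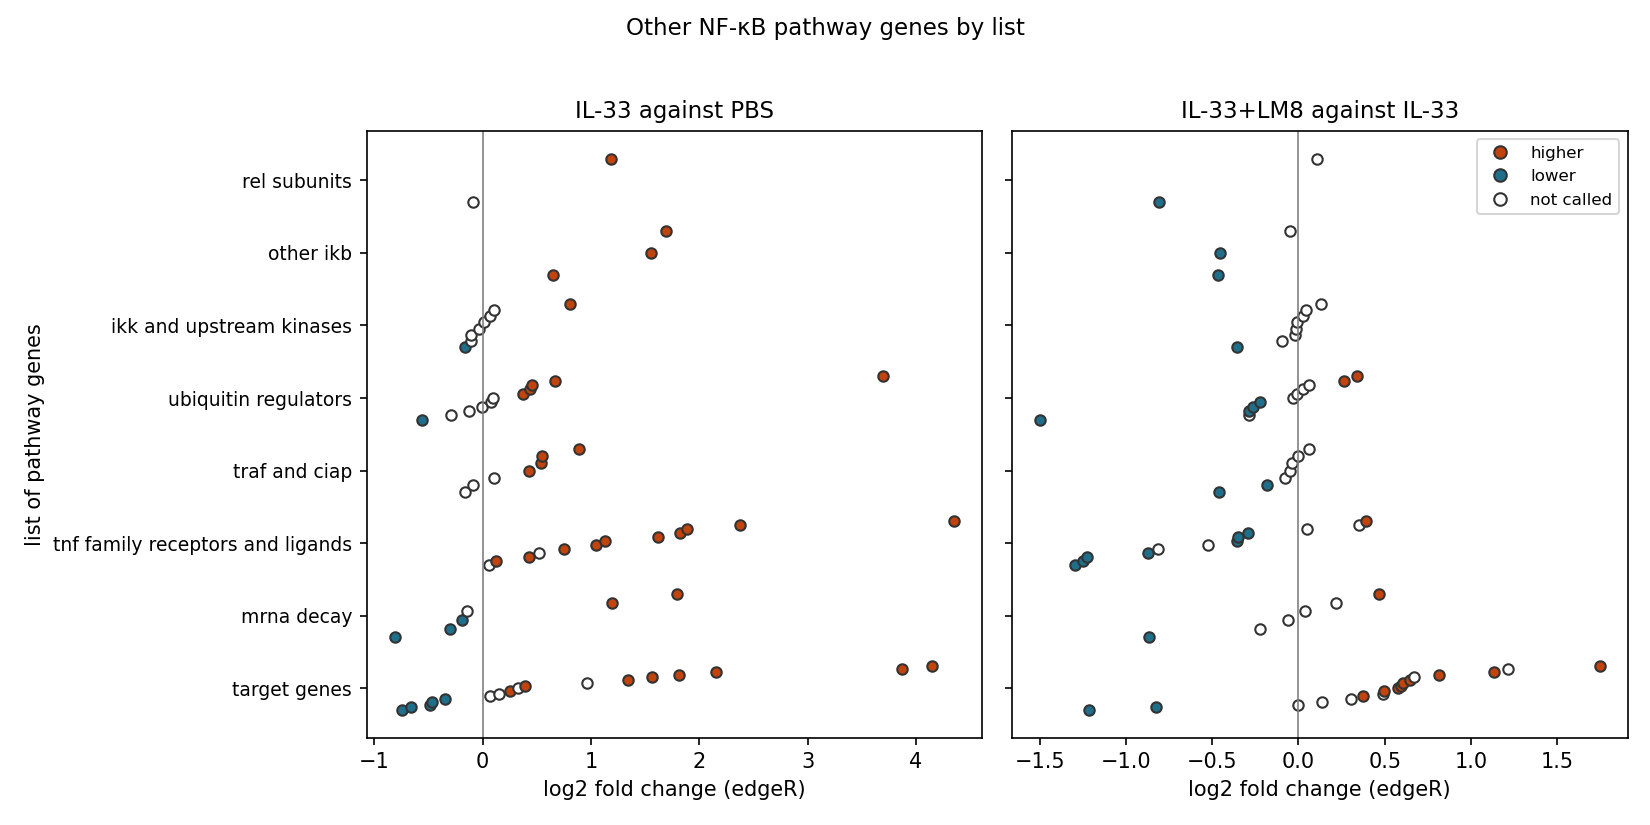
Log2 fold changes from edgeR (horizontal axes) of 66 other NF-κB pathway genes, by list (vertical axis), for IL-33 against PBS and IL-33+LM8 against IL-33. Each point is a gene, and filled points passed the test. In the list of TNF family receptors and ligands, which also holds *Adam17*, 10 of 12 rose with IL-33 and 7 fell with LM8. Of all genes tested, 27.4% were called higher with IL-33 and 13.9% lower with LM8. Of 17 target genes, 9 rose and 2 fell with LM8.

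The genes whose log2(FPKM + 1) ran most like each of the 10 over the 9 mice were found among 16831 genes. The 9 mice fall into 3 groups, so Pearson's r mainly describes the group pattern, and it is given without a test. *Vars*, *Cd44* and *Trgc4* were nearest to *Nfkb1* (r = 0.998 each), *Trgj4*, *Tarm1* and *Hcls1* to *Nfkb2* (0.996, 0.994 and 0.993), and *Lmnb1*, *Ptger4* and *Rnf128* to *Relb* (0.997, 0.995 and 0.991). *Trgc4* also led for *Tnfaip3*, followed by *Tarm1* and *Lilrb4b* (0.998, 0.998 and 0.997). *Nfkbia* was matched by *Trim10*, *Sft2d2* and *Tax1bp1* (0.972, 0.970 and 0.968), and *Nfkbiz* by *Nub1*, *Irf1* and *Tapbpl* (0.962, 0.953 and 0.948). *Tnf* ran with *Flot1*, *Mmp8* and *Tagln* (0.984, 0.982 and 0.977), of which *Mmp8* is on the neutrophil list, and *Bcl3* with *Orai1*, *Pim1* and *Trbj1-6* (0.986, 0.976 and 0.974). *Ccl17*, *D730005E14Rik* and *Ccl2* were nearest to *Zc3h12a* (0.993, 0.993 and 0.992), and *Pigr*, *Retnlg* and *Chil1* to *Tnip1* (0.995, 0.994 and 0.994), of which *Retnlg* is on the neutrophil list too.

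Promoters were searched as a planned part of the description of the 10 genes. RefSeq promoters on GRCm38.p6 were matched by symbol for 7 of the 10 genes, with 10 transcription starts, and the 250 bases before each start were searched on both strands for the κB consensus. It was found before 6 of the 10 starts, in 4 of the 7 genes, with all 3 starts of *Nfkb2* among them. Of all 32851 promoters of the same length, 7.25% held it. The 10 genes were chosen as NF-κB subunit and feedback genes, so the difference from this share is no test. A match is a description of letters and not a site of binding. The stretches around the matches in *Nfkb2*, *Nfkbia*, *Tnfaip3* and *Tnip1* are shown since 3 of these genes rose with IL-33 and *Nfkbia* did not; they are written 5′ to 3′ on the strand of the gene, with matched bases in capitals and overlapping matches joined.
*Nfkb2*, first start, chr19:46304678-46304736, plus strand: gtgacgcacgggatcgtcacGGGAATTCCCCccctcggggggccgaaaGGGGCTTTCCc
*Nfkbia*, chr12:55492648-55492696, minus strand: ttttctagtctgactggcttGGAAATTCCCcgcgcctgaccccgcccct
*Tnfaip3*, first start, chr10:19015411-19015555, minus strand: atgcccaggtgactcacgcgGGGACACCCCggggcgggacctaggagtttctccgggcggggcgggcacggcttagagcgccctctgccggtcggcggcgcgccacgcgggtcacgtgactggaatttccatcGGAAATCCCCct
*Tnip1*, chr11:54962967-54963018, minus strand: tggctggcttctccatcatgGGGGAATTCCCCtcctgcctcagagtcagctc

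The upstream windows of *Tnf*, *Bcl3* and *Zc3h12a* held no match to these letters, and *Bcl3* and *Zc3h12a* rose with IL-33. No promoter was matched for *Nfkb1*, *Relb* and *Nfkbiz*, and a relation between matches and rises was not tested.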

How the data were processed

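Lung RNA of 9 mice was sequenced in paired ends. The authors deposited a table of counts (raw reads assigned to each gene) and FPKM for every mouse, with FPKM computed by their sequencing company. The submitters' processing notes name HISAT2 2.0, Bowtie 0.12.2 and StringTie 1.3.0; counter, annotation and strand use are not given in the sources used here. Groups were taken from the treatment labels. Each comparison was fitted on the counts of its 6 mice with edgeR 4.0.16 (R 4.3.3; TMM, quasi-likelihood F test) for genes with a mean of at least 0.5 FPKM over 9 mice, and p was adjusted by the method of Benjamini and Hochberg, with a threshold of 0.05. The SE is the size of the log2 fold change over the square root of F. The fits were tested on simulated data. Alternatives were DESeq2 1.42.0, limma 3.58.1 on log2(FPKM + 1) and log2(FPKM + 0.1), median-of-ratios size factors, no filter or a mean of at least 5 FPKM, stricter thresholds, 1 joint fit, pairs by replicate number, and leaving out mice singly.

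Named were the 10 genes, *Rela*, *Rel*, *Nfkbib*, *Nfkbie* and *Nfkbid*, the 5 largest rises and falls per comparison among called pathway genes with non-overlapping FPKM, the most abundant gene of each marker list, marker genes at 0 in a group, and 3 most alike genes per gene. *Map3k14*, *Map3k7*, *Ccl20*, *Cd40lg*, *Ly6g*, *Siglecf*, *Ear6*, *Ccr3*, *Il5ra*, *Mrc1* and the ratios were chosen after their values were seen. *Adam17*, *Malt1*, *Tab1*, *Tab2* and *Tab3* are named because the titles of their lists do not describe them. The 10 genes and all lists were chosen with earlier results of these data known.

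Replicate numbers come from the sample titles. Deviations from group means of same-numbered PBS and IL-33+LM8 mice correlated at 0.31, 0.32 and 0.67. This met the rule used for pairing (every same-numbered pair over 0.1). Differently numbered mice of these groups also reached 0.20 and 0.17 (PBS 1 with IL-33+LM8 2, and PBS 2 with IL-33+LM8 1). The pairing is thus a hint from the data and not from the labels. PBS replicate 3, IL-33 replicate 1 and IL-33+LM8 replicate 3 correlated with each other at 0.65, 0.67 and 0.67. Each had the most counted reads of its group, at 73869252, 66029783 and 90607218. Whether depth or pairing lies behind these correlations was not tested. Chi-square per gene between mice of 1 group was 22.0 or more, so none was treated as a copy.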

Additional observations from a re-analysis of the deposited data

How the results depend on the processing

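Calls depended most on a minimum fold change. When calls also needed a log2 fold change of 1 or more in size, 4 of the 10 genes were called in IL-33 against PBS (8 without it), 1 in IL-33+LM8 against IL-33 (7) and 4 in IL-33+LM8 against PBS (9), and the other pathway genes called numbered 19 (44), 7 (33) and 12 (36). At an adjusted p under 0.01, the last 2 of these counts were 21 and 22. With each mouse left out in turn, IL-33+LM8 against IL-33 had between 4 and 7 of the 10 genes called. There the log2 fold change of *Bcl3* (-0.052 with all mice) lay between -0.19 and 0.091 and turned to 0.091, 0.023 and 0.0044 without IL-33 replicate 1, IL-33+LM8 replicate 1 and IL-33+LM8 replicate 2, and that of *Zc3h12a* (0.085) lay between -0.011 and 0.15, at -0.011 without IL-33+LM8 replicate 2; neither gene was called in any of these fits. With the replicate block, 8, 6 and 10 of the 10 genes and 40, 28 and 40 other pathway genes were called, in the order above. The fall of *Nfkb1* with LM8 was then not called (edgeR adjusted p = 0.0558, 0.000854 to 0.0706 over all alternatives). Its log2 fold change lay between -0.295 and -0.209 over all alternatives. In IL-33+LM8 against PBS the block changed no call among the 10 genes other than that of *Nfkbiz*. Same-numbered PBS and IL-33 mice (deviations correlated at -0.42, 0.28 and -0.28) and IL-33 and IL-33+LM8 mice (-0.38, 0.22 and -0.40) shared only a number. Across numbers, PBS replicate 3 with IL-33 replicate 1 reached 0.65, and IL-33 replicate 1 with IL-33+LM8 replicate 3 reached 0.67, so not every mouse correlated best with its own number. Of 477 fold changes of the 10 genes under alternatives, 442 kept direction and side of the threshold, 26 lost a call, 5 gained one and 4 turned sign. Stricter thresholds call fewer genes by construction, and the cause of the other changes was not tested. The share of all genes called is not given for these settings, so the counts under them are not set against it. *Tnf* could not be fitted at a mean of at least 5 FPKM. Values of *Tnf* rest on few counts, and those of all genes on 3 mice a group.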
